A study of Mus musculus with 20 samples.

Results

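The genes described here make and shape the protein entry routes and inner folds of mitochondria: 34 genes for translocases, sorting machinery and cristae junctions, taken from a list of symbols and found among 53465 gene identifiers. All 34 were identified and all 34 passed the filter on low counts. They were measured by poly(A)-selected RNA sequencing with a strand-directional kit in muscle of wild-type (WT) mice, with 5 libraries from each of 4 groups: females without training, females with training, males without training and males with training. All share the wild-type genotype, and age, strain, the muscle taken, the form and length of training and the time of collection are not stated. The comparisons ask how training and sex bear on these genes. Nothing in the labels ties a library to its own animal, so a p-value here reflects library-to-library spread, which may in part be technical. Library numbers 1 to 5 within a group are names only and pair nothing. The non-trained female library 1, named S_1 in the labels, is also shown on its own.

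Nearly all mitochondrial proteins are made in the cytosol and must cross the mitochondrial membranes. The TOM complex of the outer membrane is the common gate, with Tomm20, Tomm22 and Tomm70a encoding receptors and Tomm40 encoding the channel. From there the SAM complex inserts barrel proteins into the outer membrane, small TIM chaperones escort hydrophobic proteins across the intermembrane space, a disulfide relay traps small cysteine-rich proteins, TIM22 inserts carriers, and TIM23 with the PAM motor pulls proteins with a presequence into the matrix. The MICOS complex holds the necks of the cristae, the inner membrane folds that carry the respiratory chain. Muscle fibres are rich in mitochondria, and endurance exercise is a textbook stimulus for making more of them.

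The 20 libraries held 22043145 to 38483572 counts, and the 34 genes together took 0.146% to 0.190% of them. Genes above 0 numbered 18727 in S_1 and 19806 to 21449 in the other libraries. Muscle fibre markers were present in every library, their 10 genes summing to 124713 to 171768 CPM (read counts relative to each library's TMM-scaled size), and none of them was at 0 in any library. In such bulk samples fewer cells of a type and less RNA per cell cannot be told apart.

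Expression per transcript length, given as the deposited TPM, a length-scaled share of transcripts, placed a cristae gene at each end of the list. Chchd3, which encodes a MICOS subunit bridging to the outer membrane, was highest at 281.6 ± 29.6 TPM (SD, n = 20). Immt, which encodes mitofilin, the scaffold of MICOS, followed at 182.7 ± 14.7 TPM, and Samm50, which encodes the barrel of the SAM complex, at 148.0 ± 10.5 TPM. At the other end stood Chchd6, a further MICOS gene, at 3.79 ± 1.01 TPM and Chchd4, which encodes the oxidoreductase that receives proteins in the disulfide relay, at 6.80 ± 0.886 TPM. The highest and lowest means were 74.3-fold apart. Of the 33 pairs of neighbours in the order, 9 were further apart than the larger of their SDs, and the other 24 were not. The separated steps lay below Chchd3, Immt, Apoo, Tomm20, Tomm6, Tomm5, Tomm7, Timm21 and Chchd4. FPKM, of which TPM is a rescaling within each library, gave the same order and is not a separate check. By mean CPM, which is not scaled by length, Immt (283.4) stood above Chchd3 (227.5).

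**Figure D1:**
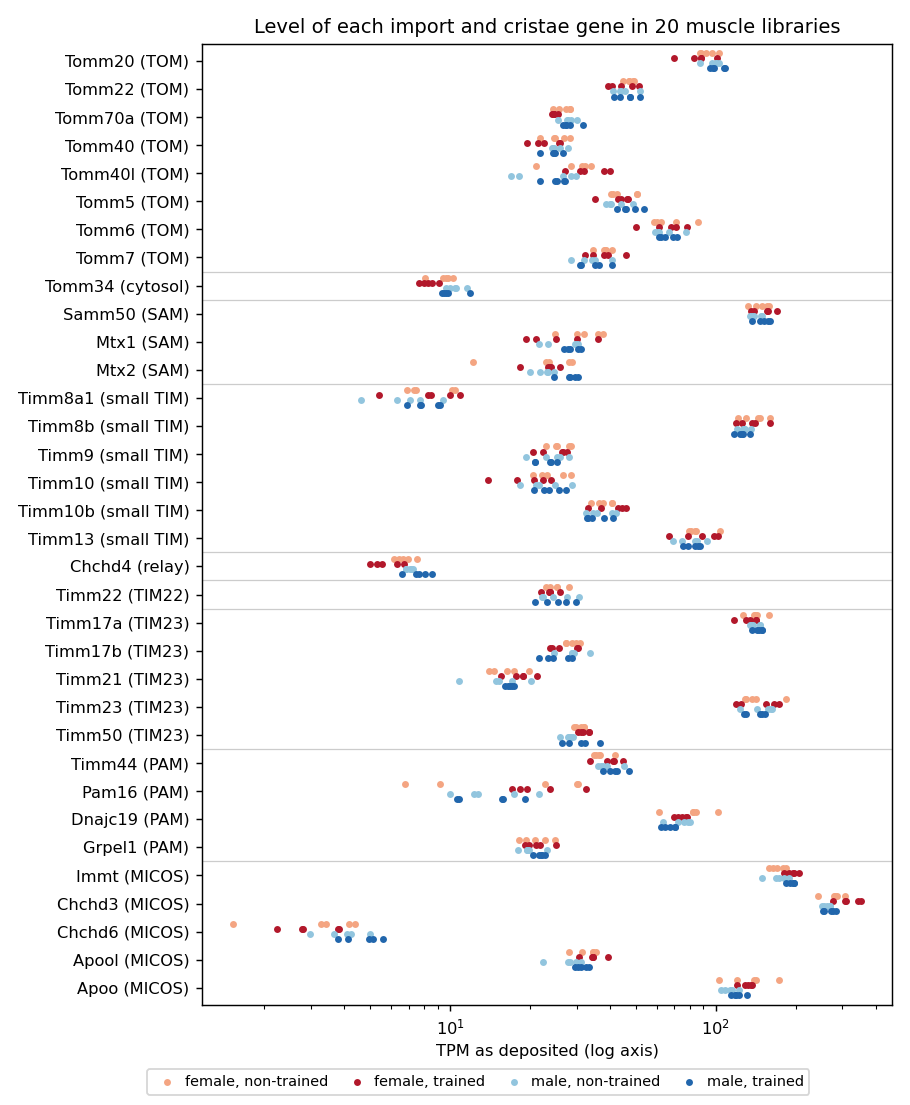
Deposited TPM (log axis) of the 34 genes, grouped by complex, with 1 point per library coloured by group. The genes run from a mean of 3.79 TPM (Chchd6) to 281.6 TPM (Chchd3), and the groups of most genes overlap.

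Within complexes the levels were uneven. Among TIM23 genes, Timm23, the channel, had a mean of 145.7 TPM and Timm17a, its partner, 140.1 TPM, while the X-linked copy Timm17b had 27.5 TPM and Timm21, which links TIM23 to the respiratory chain, 16.8 TPM. In the TOM complex Tomm20 had 94.6 TPM, against 26.9 TPM for the receptor gene Tomm70a and 24.5 TPM for Tomm40. The second channel gene, Tomm40l, had a mean of 28.1 TPM. Among small TIM genes Timm8b had 132.7 TPM and its X-linked relative Timm8a1 8.06 TPM. RSEM divides reads that fit several genes by estimation: 16 of the 34 genes had whole counts in every library, and 8 (Tomm20, Tomm6, Timm8b, Timm10b, Timm23, Pam16, Dnajc19 and Grpel1) had a fraction in all 20, so their levels rest in part on shared reads.

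Variation between libraries was small for most of these genes. The coefficient of variation of CPM over the 20 libraries had a median of 12.1%, against 19.5% over all genes tested, and ran from 4.08% for Tomm70a to 49.2% for Pam16, a regulatory subunit of the import motor. Pam16 stood at 11.996, 1.85, 9.98, 2.15 and 7.35 CPM in the 5 non-trained female libraries. It overlaps Glis2 on the opposite strand, and the use of strand in counting is not stated in the sources.

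S_1 stood above the mean of the other 4 non-trained female libraries for 29 of the 34 genes. It was the highest of its group for 21 and the lowest for none, with a median deviation of 0.18 on the log2 scale. The largest deviations were those of Pam16 (1.51), Apoo (0.67), the small TOM subunit gene Tomm6 (0.56) and the small TIM gene Timm13 (0.53). Apoo was at 118 CPM in S_1 and at 62.8 to 89.5 CPM in the other 4, Tomm6 at 37.0 against 22.8 to 26.9 CPM, and Timm13 at 39.7 against 26.003 to 30.7 CPM. Tomm40l, Tomm70a, Tomm5, Timm21 and Timm8a1 lay below the mean of the others in S_1. Over the 34 genes the median absolute deviation was 0.19 in S_1, and also in non-trained female library 3 and trained male library 3. Over all genes S_1 lay furthest from its group, with a median absolute deviation of 0.33 against at most 0.25 in any other library. Its summed fibroblast and tendon markers were 126.2 CPM against 435.9 to 1094 CPM in the other 4, and its Schwann cell markers 46.8 against 110.2 to 176.3 CPM. S_1 was also the lowest of the 5 for macrophage (45.2 against 58.7 to 134.9 CPM), endothelium (233.1 against 300.2 to 389.8 CPM) and satellite cell markers (8.92 against 14.1 to 20.9 CPM). Its adipocyte and erythroid markers lay within the range of the other 4. It was the highest of the 5 for other mitochondrial and slow fibre lists: 37 complex I genes summed to 5594 CPM against 4035 to 4965 CPM in the other 4, 78 mitochondrial ribosome genes to 2665 against 2049.7 to 2344 CPM, 42 further import and cristae genes to 5935 against 4856 to 5593 CPM, and 10 slow fibre markers to 5032 against 1207 to 4735 CPM. The part of these differences in its high import gene levels was not tested. Leaving S_1 out is described beside the results of the 34 genes that rest on non-trained females. Trained male library 3 stood the other way, lowest of its group for 22 of the 34 genes with a median deviation of -0.18. Non-trained female library 3 was the lowest of its group for 14 genes, with a median deviation of -0.15. Trained female library 2 was the highest of its group for 16 genes, with a median deviation of 0.15.

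**Figure D2:**
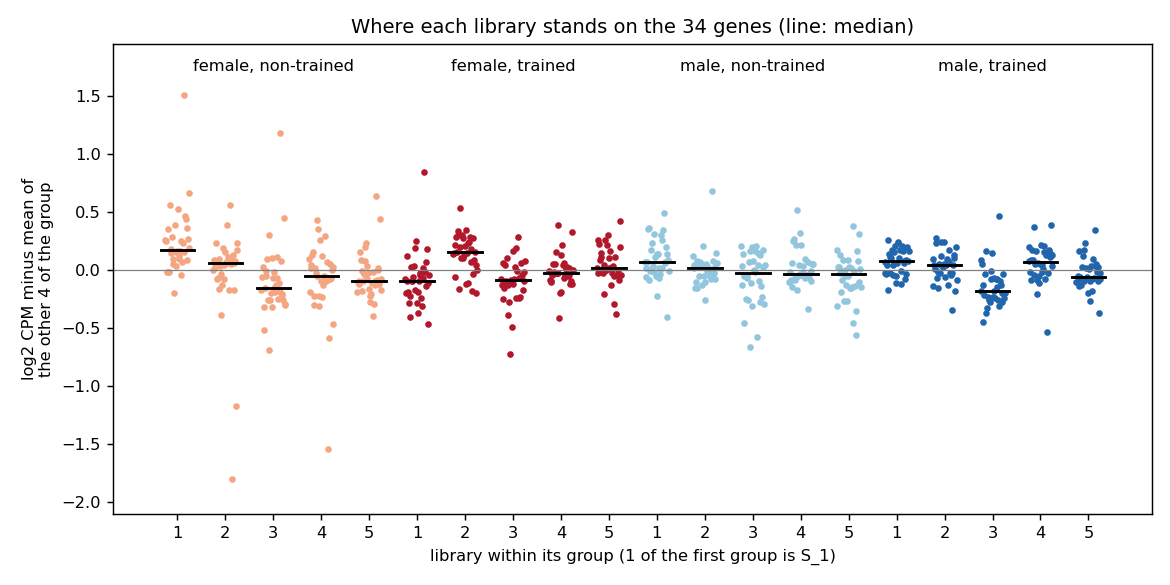
Deviation of each of the 34 genes (points) in each library from the mean of the other 4 libraries of its group, in log2 CPM, with the median as a line. S_1, the first library of the first group, has a median of 0.18, and trained male library 3 has -0.18.

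Training did not change any of the 34 genes past an adjusted p of 0.05 (edgeR quasi-likelihood test, Benjamini-Hochberg over 15709 genes). The share of all genes called was 0% in females, 0% in males, 0.0127% (2 genes) for the mean of both sexes and 0% for the difference between the sexes, so few genes of any kind were called. At an unadjusted p under 0.05 there were 2 of the 34 in females, 1 in males, 5 for the mean and 1 for the training by sex interaction, against 8.57%, 4.30%, 9.17% and 4.18% of all genes. DESeq2 called 1 of the 34, Immt, for the mean of both sexes, where it called 24 of all 15709 genes. It called none of the 34 in the other training comparisons, and limma-voom called none. The median log2 difference of the 34 genes was 0.01 in females, 0.06 in males and 0.05 for the mean, beside 0.00 over all genes each time. Without S_1 the median was 0.07 in females and 0.09 for the mean.

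Immt had the smallest p of the 34 genes for training in both sexes. In non-trained females it stood at 277, 273, 235, 272 and 264 CPM, and in trained females at 326, 329, 306, 294 and 315 CPM. In non-trained males it stood at 290.3, 256, 229, 257 and 271 CPM, and in trained males at 288, 311, 263, 313 and 298 CPM. All 5 trained female libraries lay above all 5 non-trained ones, while the male groups overlapped. Immt was the single gene of the 34 whose groups were apart in females (2.94%, against 1.35% of all genes), and none was in males (against 1.09%). The log2 difference was 0.25 in females (SE 0.07, adjusted p = 0.37), 0.18 in males (SE 0.07, adjusted p = 0.99) and 0.21 for the mean (SE 0.05, adjusted p = 0.28), the last equal to a 1.16-fold higher level. DESeq2 gave the same mean difference of 0.21 an adjusted p of 0.0164, and over the fits that left out 1 library the edgeR adjusted p ran from 0.149 to 0.537. Without S_1 the differences were 0.26 in females and 0.22 for the mean (adjusted p = 0.19).

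Chchd3, the MICOS partner of Immt, came next in females. It stood at 272, 232, 193, 214 and 208 CPM in non-trained and at 296, 292, 243, 254 and 255 CPM in trained females, where S_1, at 272 CPM, was the only non-trained library above the lowest trained one. The difference was 0.26 (SE 0.09, adjusted p = 0.47) in females and 0.08 (SE 0.09) in males, and the female value was 0.34 (SE 0.08, adjusted p = 0.21) without S_1. For the mean of both sexes all 5 MICOS genes lay above 0, from 0.07 for Apoo to 0.21 for Immt, none past the threshold. Without S_1 they lay between 0.12 (Chchd6) and 0.22 (Immt), with Apoo at 0.15.

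Of the import genes, Timm44, the anchor of the import motor at the inner membrane, had a mean difference of 0.14 (SE 0.06, adjusted p = 0.51). It stood at 47.0, 45.0, 38.7, 44.8 and 40.1 CPM in non-trained and 47.4, 48.9, 41.1, 47.7 and 50.1 CPM in trained females, and at 50.7, 40.1, 39.6, 40.7 and 38.8 CPM in non-trained and 51.0, 45.4, 39.1, 50.1 and 47.4 CPM in trained males. The ranges of trained and non-trained libraries overlapped in both sexes. Timm21 stood at 13.5, 12.6, 13.4, 16.3 and 13.7 CPM in non-trained and 14.2, 18.5, 16.1, 15.8 and 16.5 CPM in trained females, a difference of 0.22 (SE 0.12). In males it stood at 14.8, 12.3, 9.07, 12.1 and 15.5 CPM in non-trained and 13.9, 14.6, 12.9, 15.3 and 13.4 CPM in trained libraries, a difference of 0.14 (SE 0.12). These differences, too, came from overlapping groups. Without S_1 the mean difference of Timm44 was 0.15 and the female difference of Timm21 0.21.

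In males the smallest p after that of Immt belonged to Tomm5, a small TOM subunit gene, and Mtx2, a metaxin gene of the SAM complex. Tomm5 stood at 19.7, 14.8, 15.7, 14.9 and 15.9 CPM in non-trained and 16.8, 21.5, 16.3, 20.2 and 17.8 CPM in trained males, a difference of 0.19 (SE 0.10), and its female groups stood at 17.5, 16.9, 16.2, 19.3 and 18.5 CPM and at 15.0, 19.3, 18.1, 17.3 and 18.8 CPM. Mtx2 stood at 18.9, 19.1, 19.3, 16.9 and 18.5 CPM in non-trained and 22.3, 23.2, 18.8, 20.7 and 23.9 CPM in trained males, a difference of 0.23 (SE 0.12). Its female libraries were at 21.4, 19.9, 13.8, 25.8 and 22.7 CPM without and 19.4, 21.3, 17.2, 19.8 and 23.3 CPM with training, a difference of -0.03 (SE 0.12). In males 4 of the 5 trained Mtx2 values lay above all non-trained ones.

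**Figure D3:**
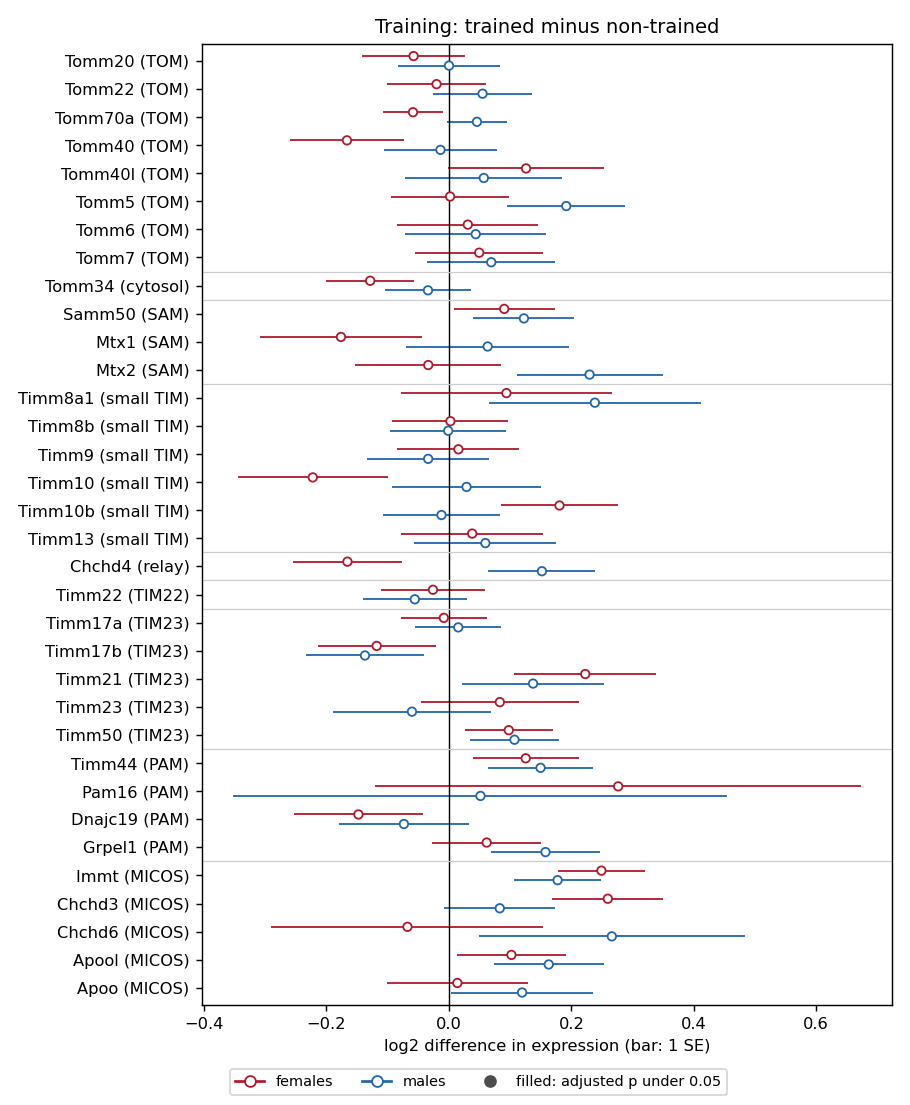
Training difference (trained minus non-trained, log2) of the 34 genes in females and males, with bars of 1 SE, and filled points for adjusted p under 0.05. No point is filled; the 5 MICOS genes lie above 0 in males, and 4 of 5 do in females.

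Whether training acted differently in the sexes was tested by the interaction (male effect minus female effect). None of the 34 genes passed, and Chchd4 had the smallest p. It stood at 16.1, 15.7, 15.1, 16.3 and 13.1 CPM in non-trained and 12.2, 12.7, 13.0, 15.3 and 14.9 CPM in trained females. In males it stood at 16.7, 15.9, 15.4, 15.1 and 14.2 CPM in non-trained and 19.5, 17.6, 16.5, 17.6 and 14.8 CPM in trained libraries. The training difference was -0.17 in females and 0.15 in males (SE 0.09 each), and their difference was 0.32 (SE 0.12, adjusted p = 0.999), with the 5 and 5 libraries overlapping in both sexes, and it was 0.30 (SE 0.13, adjusted p = 0.97) without S_1. Mtx2 followed with 0.26 (SE 0.17) and Tomm70a with 0.10 (SE 0.07). Tomm70a was the steadiest gene, at 66.8, 68.4, 68.5, 68.9 and 63.9 CPM in non-trained and 69.1, 62.5, 66.8, 61.0 and 63.8 CPM in trained females, and at 65.2, 68.0, 68.6, 66.7 and 68.5 CPM in non-trained and 68.2, 71.2, 71.7, 69.0 and 67.8 CPM in trained males.

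The effect sizes agreed in sign between the sexes for 21 of the 34 genes (61.8%), 16 above 0 and 5 below, against 56.1% of all genes. The remaining training differences of single genes lay between -0.22 (Timm10 in females, a small TIM chaperone gene) and 0.28 (Pam16 in females, SE 0.40). Without S_1 the Pam16 value was 0.60 (SE 0.40, adjusted p = 0.68) and that of Timm10 -0.22.

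Between the sexes, Apool, Apoo, Chchd3, Tomm40l and Timm8b were lower in male than in female muscle, with log2 differences from -0.20 to -0.38. Over both training states 5 of the 34 (14.7%) passed the threshold, all lower in males, against 17.9% of all genes tested, so the share called was below the background. Of the 5, Apool, Apoo and Chchd3 belong to MICOS, Tomm40l to TOM and Timm8b to the small TIM chaperones. In sign, 28 of the 34 lay below 0, with a median of -0.10 beside 0.00 over all genes. The median was -0.12 in non-trained mice, where 30 of the 34 lay below 0, and -0.09 in trained mice, where 25 did. Without S_1 the median was -0.06 in non-trained mice and -0.07 over both states, with 27 of 34 below 0 each time. Leaving out trained female library 2 instead gave -0.06 in trained mice and -0.07 over both states. The count called over both states was again 5 without S_1 (against 16.1% of all genes), but Timm8b was lost and Tomm34, higher in males, was called (0.15, adjusted p = 0.047).

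Apool, an X-linked gene (chrX:112311334-112372755, plus strand, GRCm38) for a cristae protein that binds the lipid cardiolipin, had the smallest p. It stood at 28.5, 29.2, 21.8, 26.003 and 23.3 CPM in non-trained and 25.9, 28.3, 27.3, 25.9 and 30.8 CPM in trained females. In males it stood at 21.3, 22.02, 17.2, 20.9 and 20.4 CPM in non-trained and 23.7, 25.4, 19.9, 23.1 and 21.8 CPM in trained libraries. All 5 trained males lay below all 5 trained females, and in non-trained mice only the highest male (22.02 CPM) and the lowest female (21.8 CPM) crossed. The difference was -0.31 over both training states (SE 0.06, adjusted p = 0.0022), or 0.807 of the female level. It was -0.34 (SE 0.09, adjusted p = 0.031) in non-trained mice, the single gene of the 34 called there (2.94%, against 5.21% of all genes), and -0.28 (SE 0.09, adjusted p = 0.071) in trained mice. Without S_1 the non-trained difference was -0.31 with adjusted p = 0.074 and the mean was -0.29 with adjusted p = 0.0041. The non-trained call was also lost without non-trained female library 2 or non-trained male library 3, 4 or 5 (adjusted p up to 0.087).

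Tomm40l (chr1:171216011-171222514, minus strand), which encodes a second TOM channel protein, had the largest called difference. It stood at 34.6, 39.8, 26.2, 37.6 and 38.1 CPM in non-trained and 34.6, 44.9, 35.2, 37.4 and 40.3 CPM in trained females. Its male libraries were at 33.4, 25.9, 21.3, 28.4 and 29.5 CPM without and 33.0, 32.5, 22.2, 29.9 and 26.5 CPM with training. Trained males lay wholly below trained females, and in non-trained mice the groups overlapped through female library 3. The difference was -0.38 over both states (SE 0.09, adjusted p = 0.0062), -0.35 in non-trained and -0.42 in trained mice, neither of the latter past the threshold in the edgeR fit of all groups. In trained mice DESeq2 (adjusted p = 0.031) and an edgeR fit of only the groups compared (adjusted p = 0.043) called it. Without S_1 the differences were -0.39 over both states (adjusted p = 0.0094) and -0.36 in non-trained mice. Tomm40l overlaps Nr1i3 on the opposite strand. The main channel gene, Tomm40, differed by -0.01 (SE 0.07).

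Chchd3 (chr6:32790976-33060260, minus strand) was lower in males over both states by a log2 difference of -0.23 (SE 0.06, adjusted p = 0.018). Its male libraries stood at 219.6, 205, 206, 193 and 191 CPM without and 225, 231, 184, 233 and 203 CPM with training, against the female values given above. In trained mice all males lay below all females and the difference was -0.32 (SE 0.09, adjusted p = 0.044), while in non-trained mice it was -0.14 (SE 0.09, adjusted p = 0.39) and the groups overlapped. Without S_1 the non-trained difference was -0.06 (SE 0.08, adjusted p = 0.75) and that over both states -0.19 (adjusted p = 0.028). The interaction that compares the states did not pass for Chchd3, and without S_1 it was -0.25 (SE 0.11, adjusted p = 0.97). In trained mice the share called was 2 of 34 (5.88%, Chchd3 and Chchd4), against 5.6% of all genes. Over the fits that left out 1 library the trained difference of Chchd3 ran from -0.35 to -0.27, and its adjusted p was above 0.05 in 15 of 20; it stayed below when non-trained female library 1, 3, 4 or 5 or trained male library 4 was left out.

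Apoo (chrX:94367117-94417093, plus strand), the relative of Apool in MICOS, was also lower in males. It stood at 118, 89.5, 69.1, 62.8 and 78.2 CPM in non-trained and 82.3, 84.5, 88.0, 84.3 and 82.5 CPM in trained females. In males it was at 67.0, 69.6, 69.1, 69.6 and 62.1 CPM in non-trained and 80.2, 69.7, 65.7, 78.8 and 72.1 CPM in trained libraries. The trained groups did not overlap, and the non-trained female values spread from below the highest males to S_1. The difference was -0.25 over both states (SE 0.08, adjusted p = 0.036) and -0.18 (SE 0.06, adjusted p = 0.040) without S_1. In non-trained mice it was -0.31 (adjusted p = 0.12) with and -0.155 (adjusted p = 0.34) without S_1. The call over both states was lost in 10 of the 20 fits that left out 1 library (non-trained female 2, trained female 2, 3 or 4, non-trained male 1, 3 or 5, and trained male 2, 3 or 5).

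Timm8b (chr9:50603910-50605320, plus strand), a small TIM chaperone gene, was lower in males by a difference of -0.20 (SE 0.07, adjusted p = 0.043). Its female libraries were at 53.8, 48.2, 38.9, 36.5 and 41.6 CPM without and 39.7, 51.0, 41.8, 43.2 and 43.8 CPM with training. Its male libraries were at 37.8, 38.9, 41.8, 37.1 and 35.6 CPM without and 41.5, 38.9, 32.8, 39.4 and 38.5 CPM with training. The groups overlapped in both states. Without S_1 the difference was -0.16 with adjusted p = 0.075, and the call was lost in 14 of the 20 fits that left out 1 library, all but those without non-trained female 3, 4 or 5, trained female 1, non-trained male 3 or trained male 1. Timm8b overlaps Nkapd1 on the opposite strand and had fractional counts in every library.

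**Figure D4:**
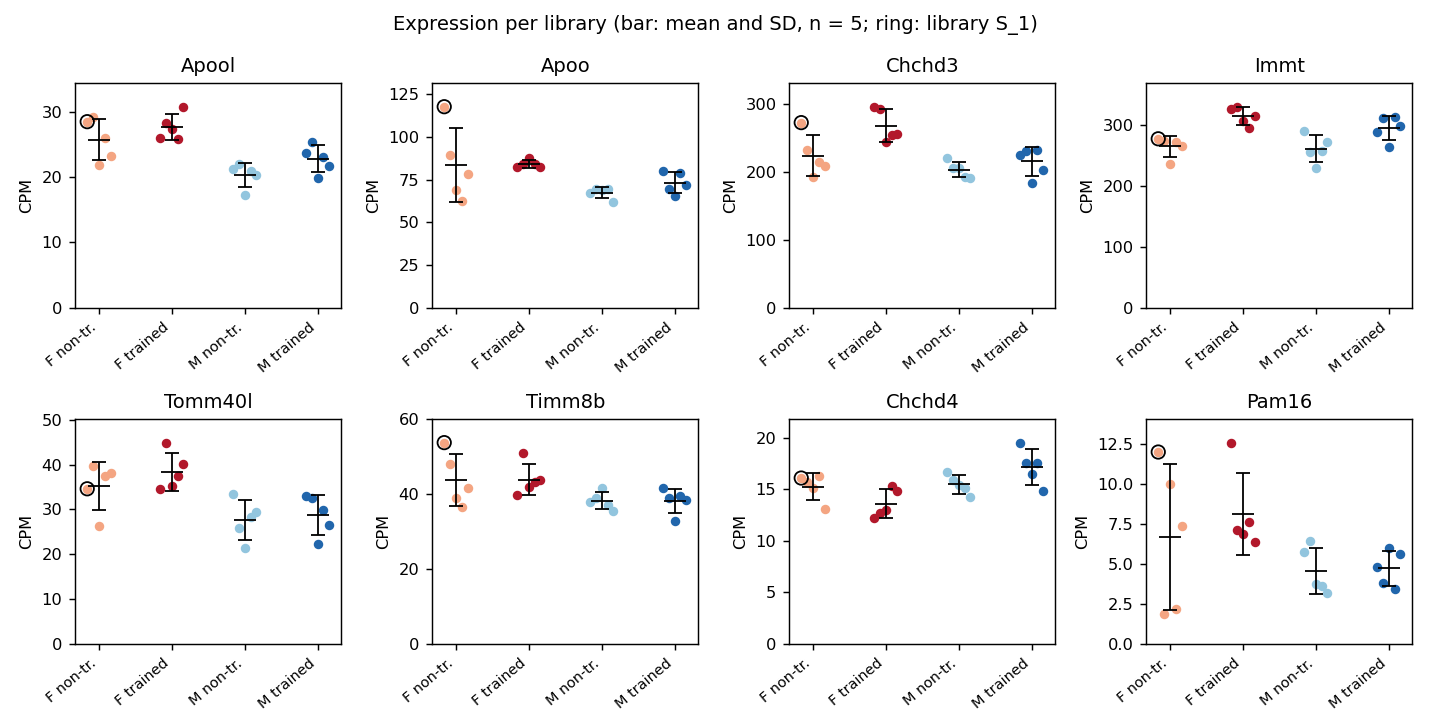
CPM of 8 of the genes in each library by group, with the mean and SD (n = 5) and a ring around S_1. Apool and Tomm40l are lower in males in both training states. S_1 is the highest non-trained female library for Apoo (118 CPM), Timm8b, Pam16, Chchd3 and Immt. Immt is higher in all 5 trained females than in the non-trained ones.

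Chchd4 (chr6:91462172-91473546, minus strand) went the other way in trained mice. Its trained male values given above exceeded the trained female ones by 0.34 (SE 0.09, adjusted p = 0.028), a 1.26-fold higher level, with the groups overlapping between 14.8 and 15.3 CPM. The call was lost without trained female library 1, 2 or 3 or trained male library 1, 2 or 4 (adjusted p up to 0.072). It was also lost in the fit of only the groups compared (adjusted p = 0.059) and with no low-count filter (adjusted p = 0.074). In non-trained mice the difference was 0.02 (SE 0.09, adjusted p = 0.93), and the interaction that compares the states did not pass. Tomm34, which encodes a cytosolic cochaperone, also lay above 0 at 0.14 over both states (SE 0.05, adjusted p = 0.065), with no overlap in trained mice.

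The other 28 genes did not pass in any sex comparison. Tomm7, a small TOM subunit gene, had a mean difference of -0.21 (adjusted p = 0.056, and called by DESeq2 at 0.040 and limma-voom at 0.046), Dnajc19, encoding a motor cochaperone, -0.20 (adjusted p = 0.068), and Pam16 -0.67 (SE 0.28, adjusted p = 0.11). Without S_1 these were -0.19, -0.15 and -0.51, none past the threshold. All 4 motor genes, all 5 TIM23 genes and all 3 SAM genes lay below 0 over both states, with medians of -0.15, -0.09 and -0.10. Without S_1 they still lay below 0, with Timm44 (-0.01), Timm17a (-0.02) and Mtx2 (-0.02) nearest to it. The TOM genes were mixed without S_1, with Tomm20 (0.03), Tomm40 (0.03) and Tomm70a (0.05) above 0 and the other TOM genes below. Besides Apool, Tomm40l, Chchd3, Apoo and Tomm34, the trained groups did not overlap for Pam16 and Dnajc19, 7 of the 34 in all (20.6%, against 7.38% of all genes). In non-trained mice the groups overlapped for all 34, while 6.38% of all genes did not overlap. In trained mice Pam16 (-0.78) was called in the fit of only the groups compared (adjusted p = 0.047). Immt, the training leader, differed between the sexes by -0.06 (SE 0.05, adjusted p = 0.48). The sign of the sex difference was the same in both training states for 29 of the 34 genes (85.3%), 25 of them below 0, against 70.4% of all genes.

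**Figure D5:**
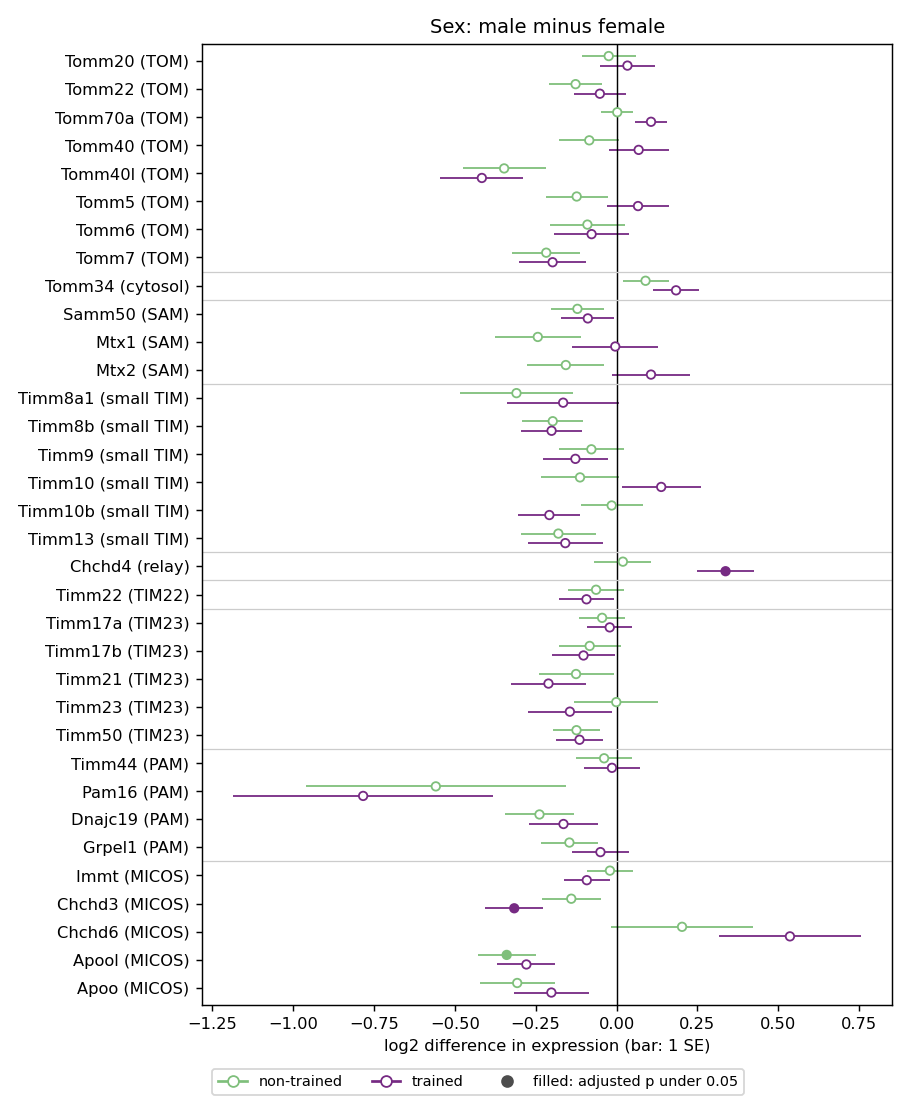
Sex difference (male minus female, log2) of the 34 genes in non-trained and trained mice, with bars of 1 SE and filled points for adjusted p under 0.05. Most points lie left of 0, and the filled ones are Apool in non-trained mice and Chchd4 and Chchd3 in trained mice.

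The 4 X-linked genes of the list, Apool, Apoo, Timm8a1 and Timm17b, all lay below 0 for sex in both training states. Their mean differences were -0.31, -0.25, -0.24 (SE 0.12) and -0.09 (SE 0.07), the first pair past the threshold. The median over all 516 X-linked genes tested was 0.00, with 50.4% of them below 0 and 19.8% called, against 17.9% of autosomal genes.

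Other cell and fibre markers moved with sex. Of 10 slow fibre markers all 10 were lower in males over both states (median -1.93), summing to 1207 to 5032 CPM in non-trained and 532.3 to 6311 CPM in trained females, and to 371.3 to 1661 CPM in non-trained and 772.7 to 2071 CPM in trained males. All 10 macrophage markers were higher in males (median 1.52), summing to 45.2 to 134.9 CPM in non-trained and 70.9 to 147.0 CPM in trained females, and to 153.6 to 361.8 CPM in non-trained and 123.2 to 696.8 CPM in trained males. Summed adipocyte markers did not overlap between the sexes, at 2719 to 4390 CPM in females and 1106 to 2295 CPM in males, with 1 of 10 called, lower in males. All 6 erythroid markers lay above 0 in non-trained males (median 1.999, 2 called), summing to 193.6 to 471.5 CPM in non-trained females and 243.5 to 3754 CPM in non-trained males, and all 6 lay below 0 in trained males (median -0.38, 0 called). All 10 Schwann cell markers lay below 0 in trained males (median -1.07, 2 called) and above 0 in non-trained males (median 0.51, 0 called). The share of all genes called for sex was 17.9% over both states, 5.21% in non-trained and 5.6% in trained mice. Numbers called are not given for the slow fibre and macrophage markers, whose directions are those of the estimates. No slow fibre, macrophage, adipocyte or erythroid marker was at 0 in any library. Their part in the sex differences of the import and cristae genes was not tested. For training, the slow fibre median was 0.16 in females and 0.91 in males with none of the 10 called. The Schwann cell median was 1.07 in females and -0.66 in males, also with none called and with the marker Mag at 0 in some library. Schwann cell markers summed to 46.8 to 176.3 CPM in non-trained and 84.5 to 340.3 CPM in trained females, and to 118.9 to 236.1 CPM in non-trained and 98.3 to 128.3 CPM in trained males. All 6 erythroid markers lay below 0 for training in males (median -2.08, 6 of 6 at an unadjusted p under 0.05, none called), with 239.2 to 364.8 CPM in trained males, and the adipocyte median for training in females was 0.77 (3 of 10 at an unadjusted p under 0.05, none called). Their part in the training values was not tested either.

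The promoters of the genes called for sex are shown because these genes passed in a sex comparison; they were picked after their values were seen. RefSeq promoters on GRCm38.p6 were found for 31 of the 34 genes, not for Timm21, Tomm40l and Tomm7. Windows of up to 250 bases before the gene start are printed 5′ to 3′, shortened where the GENCODE M21 gene begins earlier, with matches to the motifs searched in capitals.
Apool promoter, chrX:112311102-112311333, plus strand: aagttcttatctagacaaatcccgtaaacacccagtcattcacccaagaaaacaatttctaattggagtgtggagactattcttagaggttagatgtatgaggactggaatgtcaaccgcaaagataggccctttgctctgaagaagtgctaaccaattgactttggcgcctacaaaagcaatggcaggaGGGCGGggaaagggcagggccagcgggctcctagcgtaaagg
Apoo promoter, chrX:94366860-94367109, plus strand: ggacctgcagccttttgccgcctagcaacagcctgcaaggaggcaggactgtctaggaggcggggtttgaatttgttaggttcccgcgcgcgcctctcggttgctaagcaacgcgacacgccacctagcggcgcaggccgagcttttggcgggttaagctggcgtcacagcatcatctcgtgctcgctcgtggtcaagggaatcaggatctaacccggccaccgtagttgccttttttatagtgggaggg
Chchd3 promoter, chr6:33060261-33060510, minus strand: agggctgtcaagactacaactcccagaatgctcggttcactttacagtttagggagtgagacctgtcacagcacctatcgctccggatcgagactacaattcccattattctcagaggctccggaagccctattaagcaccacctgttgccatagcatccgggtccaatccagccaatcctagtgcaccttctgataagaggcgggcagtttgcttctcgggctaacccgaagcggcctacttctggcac
Timm8b promoter, chr9:50603651-50603900, plus strand: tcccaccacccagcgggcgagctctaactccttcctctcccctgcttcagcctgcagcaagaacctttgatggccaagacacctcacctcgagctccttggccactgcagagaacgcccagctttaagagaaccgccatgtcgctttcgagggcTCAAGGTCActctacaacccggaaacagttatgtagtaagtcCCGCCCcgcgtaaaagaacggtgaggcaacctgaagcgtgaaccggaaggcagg
Chchd4 promoter, chr6:91473547-91473673, minus strand: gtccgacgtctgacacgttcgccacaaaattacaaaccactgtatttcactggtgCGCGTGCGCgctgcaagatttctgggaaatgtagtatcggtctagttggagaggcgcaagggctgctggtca

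Capitals mark a GC box in Apool, an ERR motif (the site of the estrogen-related receptors) and a GC box in Timm8b, and an NRF1 motif in Chchd4. Apoo and Chchd3 held no match in the window. The counts that follow searched the full 250 bases before each start. A match can therefore lie outside a printed window, as the GC box of Chchd4 does. A member was counted once over its starts (3 had 2 starts), while all promoters were counted by entry. Over the 31 genes and the 250 bases before the start, on both strands, the NRF1 motif GCGCANGCG was in 4 (12.9%, against 5.16% of all 32851 promoters), in Chchd4, Pam16, Timm13 and Tomm20. The ETS motif CCGGAAGT was in 3 (9.68% against 2.88%), in Mtx2, Timm23 and Tomm70a. The ERR motif TCAAGGTCA was in Timm8b alone (3.23% against 0.387%), and the nuclear receptor core site AGGTCA that it contains was in 3 (9.68% against 14%). The E-box CACGTG was in 3 (9.68% against 6.02%), the GC box GGGCGG in 18 (58.1% against 32.7%) and the YY1 motif AANATGGC in 0 (against 3.91%). Member promoters had a median GC content of 56.4%, against 52.4% over all promoters. NRF1 and the ETS factors are known regulators of nuclear genes for mitochondria; the matches are descriptions of these letters.

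Other genes of import, processing and cristae upkeep were counted in the same way. Of 42 such genes 41 were tested, and none passed for training. The 2 with the smallest p were Trap1 (0.16, SE 0.07) and Dnajc15 (0.18, SE 0.08) in females, Afg3l2 (0.21, SE 0.07) and Hspe1 (0.28, SE 0.11) in males, and Xpnpep3 (0.26, SE 0.08) and Aifm1 (0.18, SE 0.06) for the mean, with Hspe1 and Stoml2 for the interaction. For sex over both states 9 of the 41 passed (21.95%, against 17.9% of all genes), 8 lower and 1 higher in males. Lower were Immp1l (-0.32), a peptidase gene of the inner membrane, Oma1 (-0.23), the stress protease that cuts the fusion protein Opa1, Dnlz (-0.23), Minos1 (-0.27), the small MICOS subunit, Pmpca (-0.15), of the presequence protease, Phb (-0.28), of the prohibitin ring, Pink1 (-0.24), the kinase that marks damaged mitochondria, and Romo1 (-0.24). March5, an outer membrane ubiquitin ligase gene, was higher (0.17). Immp1l also passed in non-trained mice (-0.34) and Oma1 in trained mice (-0.24).

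The nuclear genes of complex I and of the mitochondrial ribosome gave medians of the same sign. For sex over both states these were -0.18 for 37 complex I genes, 10 of them called (27.03%), and -0.13 for 78 ribosome genes, 21 called (26.9%), against 17.9% of all genes. For training over both sexes they were 0.16 and 0.06, with none called. Fits without S_1, the highest non-trained female library for both lists, are not given for them. Whether these lists differ from the import and cristae genes was not tested.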

How the data were processed

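Poly(A) RNA libraries from wild-type mouse muscle (4 groups of 5 by sex and training) were analysed from the authors' tables, 1 per library. The authors deposited RSEM expected counts per gene, with TPM and FPKM beside them, per the file headers; TPM and FPKM were used only to order levels. Per the submitters' processing notes, the build was GRCm38 and the tools were STAR 2.5.1 and RSEM 1.3.1, with cutadapt, Trim Galore, limma and edgeR; the annotation release and any use of strand in counting are not stated in the sources. Of 53465 identifiers 53360 matched GENCODE M21, which gave symbols and coordinates, and the rest held 0.00673% of the counts.

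Expected counts were rounded, filtered with filterByExpr (minimum count 10, 15709 genes) and scaled by TMM. edgeR 4.0.16 under R 4.3.3 fitted 1 coefficient per group (robust quasi-likelihood, 16 residual degrees of freedom), tested on simulated data. There were 7 comparisons: training in each sex, its mean and its interaction with sex (male minus female effect), and sex (male minus female) in each training state and their mean. P-values are two-sided and adjusted by Benjamini-Hochberg over all genes in each comparison, with a threshold of 0.05. SE is the log2 difference divided by the square root of F. Log2 CPM used a prior count of 2.

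Members and lists were chosen with earlier results of these data known. All 34 genes are accounted for, with values in every library for those past the threshold in any comparison and the 3 with the smallest p in each. Of the other import genes, those past the threshold are named, otherwise the 2 with the smallest p. Pam16, Tomm6, Timm13, Tomm7, Dnajc19, Tomm34 and other genes given by single values were picked after their values were seen. No 2 libraries of a group held identical values. Alternatives were DESeq2 1.42.0, limma-voom (limma 3.58.1), size factors by RLE, unscaled library sizes (without TMM), no filter, a stricter filter (1 CPM in 5 libraries and a mean count of 20), a fit of only the groups compared, a fit without the 20 highest genes and those of mitochondrial DNA, and fits that each left out 1 library. Further samples in this series are not analysed here.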

Additional observations from a re-analysis of the deposited data

Results flagged for a closer look

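Taking each of the 34 genes in each group gave 136 sets of 5 libraries. Of these, 11 had a library far from the other 4 by Dixon's gap test. The nominal rate of the test is about 1 in 20 for independent sets. The genes share libraries and the share over all genes was not counted, so the 11 are not read as an excess. All values are CPM. Trained male library 3 was apart for 3 genes: Tomm34 was high there at 13.78 (others 12.01 to 12.41), while Samm50 was low at 134.3 (others 165.8 to 172.3) and Timm17a low at 85.58 (others 98.28 to 103.5). Non-trained male library 1 was high for Tomm5 at 19.75 (others 14.83 to 15.9) and for Timm44 at 50.69 (others 38.82 to 40.74), and non-trained male library 5 was low for Dnajc19 at 17.91 (others 22.62 to 23.43). Among trained females, Timm44 was low in library 3 at 41.12 (others 47.41 to 50.07), Pam16 was high in library 1 at 12.58 (others 6.345 to 7.633) and Grpel1 was high in library 2 at 60.47 (others 48.2 to 50.8). Among non-trained females, Immt was low in library 3 at 235.2 (others 264.5 to 276.8) and Chchd6 low in library 2 at 1.155 (others 2.284 to 2.949). S_1 was in none of the 11.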

How the results depend on the processing

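No result changed sign from a called value under any alternative. The members called over both training states for sex kept Apool, Tomm40l and Chchd3 in all 20 fits that left out 1 library and under every other setting tried for that comparison. Numbers of genes called by DESeq2 were 24 for training in females, 5 in males, 24 for the mean and 1 for the interaction, and 1465 and 1401 for sex in non-trained and trained mice; limma-voom gave 0 and no low-count filter 1 for the training mean. A fit with only the groups compared gave 448 genes for sex in non-trained mice, and no low-count filter gave 558 in trained mice. DESeq2 called 1 of the 34 genes for the training mean and 4 for sex in trained mice. For sex in non-trained mice library size without TMM and only the groups compared each called 0 of the 34, and for sex in trained mice no low-count filter called 0. Library size without TMM moved the share of higher calls for sex over both states from 55.2% to 75.1%, the members' median from -0.10 to -0.03, the median of all genes from 0.003 to 0.06, and the members' calls to Apool, Tomm40l and Chchd3 lower and Tomm34, Tomm70a and Chchd4 higher. Without TMM, 2743 of 15709 genes were called for sex over both states. With 1 library left out, members called ran from 0 to 3 for sex in non-trained mice, 0 to 3 in trained mice and 3 to 9 over both. The 9 members were called without non-trained female library 4, where 2874 of 16025 genes were called. Genes called for sex ran from 435 to 1038 in non-trained mice, 494 to 1239 in trained mice and 2247 to 2909 over both. For training they ran from 0 to 1 in females, 0 to 1 in males and 0 to 7 for the mean (7 without non-trained male library 5). The cause of these changes was not tested. No paired analysis was possible because the labels give no replicate numbers that groups share. With 5 libraries a group and a median SE of 0.10 per gene, small differences are below what these libraries can call.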
